A study of Mus musculus with 6 samples.

Results

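The genes described here handle retinoids, the vitamin A compounds of the cell, in NMuMG cells, a line of mouse mammary gland epithelium that takes on a mesenchymal form under TGF-beta (epithelial to mesenchymal transition, EMT). They are 9 genes taken by symbol: the retinol carrier Rbp4, the enzymes Rdh10, Dhrs3, Aldh1a1 and Aldh1a3, the retinoic acid binding protein gene Crabp2 and the receptor genes Rara, Rarb and Rarg. All 9 have a row among the 14526 genes of the deposited table. They were chosen by the normalised read counts of these same 6 libraries, with the difference between the groups already known, so their values in this contrast are a description and carry no test. RNA was sequenced from 3 libraries of cells given siRNA against Mnt (siMnt) and 3 libraries of cells given a non-targeting control siRNA (siNTC). Mnt is a repressor that pairs with Max at E-box sequences. Cells of both groups had received TGF-beta together with the siRNA 16 hours after plating, with both renewed on day 2, and RNA was taken at day 4. The labels give the TGF-beta induction for all 6 libraries, so no value here bears on cells without it. Nothing in them tells whether replicates came from separate cultures, and the spread that p-values rest on here may be technical. Because RNA was pooled over a culture, more cells that express a gene and more RNA per cell cannot be told apart.

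Retinol travels in blood bound to the carrier RBP4. Inside cells RDH10 oxidises retinol to retinaldehyde, DHRS3 reduces retinaldehyde back to retinol, and ALDH1A1 and ALDH1A3 oxidise retinaldehyde irreversibly to retinoic acid. CRABP2 carries retinoic acid to the nucleus, where the receptors RARA, RARB and RARG bind it as partners of the RXR receptors and switch target genes.

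In siMnt cells the genes of this pathway moved apart. Rdh10 was lower than in siNTC cells, at 13.3% of the control mean, while Aldh1a1 was higher, at 988% of it, and Rbp4 was higher, at 262%. Dhrs3 averaged 200% of the control mean, but its groups overlapped. Rara and Rarg overlapped between the groups. Aldh1a3, Crabp2 and Rarb were close to the lower limit of detection in all 6 libraries. Values are normalised read counts, that is, reads per gene divided by 1 size factor per library.

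Promoter sequence was taken from RefSeq on mouse build GRCm38.p6, which is not the build named in the submitters' processing notes, and 6 of the 9 genes had an entry. Aldh1a1 is shown with its neighbour Aldh1a7 because reads of the pair can be confused and because both were higher in siMnt cells. Aldh1a1 had entries for 2 starts, of which 1 was compared, and Aldh1a7 had an entry for 1. The 120 bases before these starts were identical at 105 positions. Capitals mark the longest run that both share, 65 bases long. The Aldh1a1 stretch lies at chr19:20601848-20601967 on the plus strand and the Aldh1a7 stretch at chr19:20727557-20727676 on the minus strand. GENCODE M21 places 7 bases of the Aldh1a1 stretch and 6 bases of the Aldh1a7 stretch in an exon.
Aldh1a1: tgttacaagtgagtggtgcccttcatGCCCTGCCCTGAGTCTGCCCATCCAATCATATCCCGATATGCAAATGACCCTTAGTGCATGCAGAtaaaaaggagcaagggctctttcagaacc
Aldh1a7: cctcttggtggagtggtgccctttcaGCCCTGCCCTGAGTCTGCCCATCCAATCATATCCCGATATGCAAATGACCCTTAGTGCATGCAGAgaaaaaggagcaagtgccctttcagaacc

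The receptor genes Rarb and Rara are shown because their promoters hold the motifs searched. The motif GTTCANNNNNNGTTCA is the form of direct repeat known as the retinoic acid response element of Rarb. On either strand it occurred in 25 of 32851 promoter windows of all genes (0.0761%), each running from 250 bases before a start to 50 after it. Of the 6 genes with an entry (Rbp4, Dhrs3, Aldh1a1, Rara, Rarb and Rarg) Rarb alone held it, beginning 52 bases before the start. The related repeat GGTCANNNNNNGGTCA was in 0.1% of all windows and in none of these 6 genes. The E-box CACGTG, the sequence bound by dimers of Max, was in 7.15% of all windows. It was found in 2 of 4 windows of Rara, and not in those of Rbp4, Dhrs3, Aldh1a1, Rarb or Rarg. In Rara it began at base 13 after the start in 1 window and 10 bases before the start in the other. Windows of 1 gene can overlap, and whether these matches are the same site was not checked. A match is a description of letters and not of binding. The Rarb stretch lies at chr14:16575506-16575535 on the minus strand, wholly inside an exon of GENCODE M21. The Rara stretch lies at chr11:98937618-98937717 on the plus strand, with 20 of its bases in an exon. Capitals mark the motif.
Rarb: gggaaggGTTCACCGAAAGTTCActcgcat
Rara: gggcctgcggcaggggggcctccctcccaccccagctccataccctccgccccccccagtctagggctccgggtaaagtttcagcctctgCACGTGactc

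Recovered read totals ran from 22323050 to 42193292 per library. Mnt averaged 639.7 ± 98.5 normalised read counts in siMnt cells and 1269 ± 352 in siNTC cells (SD, n = 3 each), with no overlap (log2 fold change -0.96 ± 0.22 (SE), limma adjusted p = 0.0546, or 0.00442 in a fit blocked on the replicate number). siNTC replicate 3 stood apart from the other controls: on the first principal component of the tested genes it lay at -0.81, against 29.4 to 35.5 for the siMnt libraries and -43.0 and -52.3 for siNTC replicates 1 and 2. No other library held more Mnt, 1596 normalised read counts. The log2 fold changes of the tested retinoid genes, and of the other genes that rose, are therefore also given without it (Mnt, -0.77). All 8 epithelial markers were tested, with a summed level of 129998 to 141551 in siMnt and 119297 to 147578 in siNTC. By limma 0 of the 8 passed, with 1 higher and 1 lower at an unadjusted p under 0.05, while edgeR called 0 and DESeq2 1. With a replicate block Cdh1 passed as higher (140% of the control mean) and Cldn4 as lower (29.6%), and without siNTC replicate 3, 2 passed as higher and 2 as lower. Of 6 myeloid markers 5 were analysed, and their sum was 2001 to 2299.8 in siMnt and 962.5 to 1329 in siNTC, most of it Csf1r, which rose, as did Itgam (limma adjusted p = 0.0242 and 0.0493). The leukocyte marker Ptprc stayed at 6.65 or less. The macrophage lysozyme Lyz2, too low to be tested, held 11.9, 8.35 and 4.90 in siMnt, against 3.49, 3.32 and 1.94 in siNTC. In normalised values the Lyz2 groups did not overlap, with siMnt higher. Its recovered reads were 11, 7 and 4 in siMnt and 4, 3 and 3 in siNTC, so the groups met at 4 reads. Of all tested genes 31.5% had groups without overlap, in either direction. Cd68 overlapped between the groups (log2 fold change -0.19). The summed mesenchymal markers were 97868 to 144191 in siMnt and 205769 to 345021 in siNTC, and of the 6 genes Vim and Cdh2 fell (limma adjusted p = 0.0226 and 0.0439). With a replicate block, without siNTC replicate 3 and in DESeq2 5 of the 6 were lower in each case, Fn1, Sparc and Zeb1 with them. Of all 12568 tested genes these fits called, in that order, 825, 817 and 614 lower and 1173, 1195 and 843 higher. The limma fit of all 6 libraries without a block called 172 lower and 322 higher. At an unadjusted p under 0.05 that fit had 1345 lower and 1593 higher, and edgeR called 157 lower and 288 higher. The 3 stellate cell or pericyte markers analysed of 5 summed to 230.4 to 352 in siMnt and 126 to 174 in siNTC, and the 2 endothelial markers of 4 to 41.8 to 49.0 in siMnt and 65.2 to 99.6 in siNTC. Pdgfrb of the pericyte list and Cdh5 of the endothelial list passed with a block and in DESeq2, and Cdh5 also without siNTC replicate 3 (limma adjusted p = 0.0854 for Pdgfrb and 0.0836 for Cdh5 in the fit of all 6 libraries). The adipocyte marker Cidec overlapped between groups. The part of these markers in the results below was not tested.

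Rdh10 held 2013, 2292 and 2463 normalised read counts in siMnt replicates 1, 2 and 3, against 22187, 19525 and 9220.4 in siNTC replicates 1, 2 and 3. Every siMnt library was below every siNTC library, and siNTC replicate 3 was the lowest control. On the log2(value + 1) scale the fold change of siMnt over siNTC was -2.82 ± 0.30 (SE). It was -3.46, -3.09 and -1.90 within replicate numbers 1, 2 and 3, and -3.21 without siNTC replicate 3. Among all 12568 tested genes this was the 24th lowest log2 fold change. Per kilobase of its longest coding transcript, Rdh10 ranked 3333rd of 12416 genes in siMnt cells and 316th in siNTC cells.

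Dhrs3, whose enzyme runs the reaction back to retinol, held 531, 539 and 337 normalised read counts in the siMnt libraries, against 120, 171 and 413 in the siNTC libraries. The groups overlapped, since siNTC replicate 3 was above siMnt replicate 3. The log2 fold change was 1.17 ± 0.43 (SE). Within replicate numbers 1, 2 and 3 it was 2.14, 1.65 and -0.29, and without siNTC replicate 3 it was 1.68. On the log2 scale siNTC replicate 3 lay 91.1% of the way from the mean of the other controls to the siMnt mean.

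Because RDH10 and DHRS3 run opposite reactions, the balance of their transcripts was followed per library. Other genes of these reactions, Adh7 and Rdh12 below among them, are left out, so the ratio describes this pair alone. Per kilobase, Rdh10 exceeded Dhrs3 by a factor of 2.47, 2.77 and 4.76 in siMnt replicates 1, 2 and 3, against 121, 74.6 and 14.5 in siNTC replicates 1, 2 and 3. Rdh10 transcripts were therefore in excess in all 6 libraries, by less in every siMnt library than in any siNTC library. Replicate 3 of each group was the closest to the other group.

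Aldh1a1, which makes retinoic acid, held 3781, 3299 and 1952 normalised read counts in the siMnt libraries, against 150, 261 and 503 in the siNTC libraries. The groups did not overlap, and the lowest siMnt library was replicate 3 while the highest siNTC library was also replicate 3. The log2 fold change was 3.42 ± 0.42 (SE), the 13th highest of all tested genes. It was 4.64, 3.65 and 1.96 within replicate numbers 1, 2 and 3, and 3.86 without siNTC replicate 3.

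Aldh1a7 is a mouse gene close to Aldh1a1 in sequence and position, and the transcripts were 89.8% identical over 2048 aligned bases. Only 7.49% of the 50-base windows of the Aldh1a7 transcript occurred unchanged in that of Aldh1a1. The sources used here do not give how reads matching both were assigned, so the split between the pair is uncertain. Aldh1a7 held 1009.9, 878 and 522 normalised read counts in siMnt, against 48.9, 79.8 and 182 in siNTC. It rose in siMnt (log2 fold change 3.10 ± 0.46 (SE), limma adjusted p = 0.0206; 3.61 without siNTC replicate 3), in the same order of libraries as Aldh1a1. The Aldh1a7 value was 26.7%, 26.6% and 26.7% of the Aldh1a1 value in siMnt replicates 1, 2 and 3, and 32.6%, 30.5% and 36.1% in siNTC replicates 1, 2 and 3. Adding the pair together gave a log2 fold change of 3.35, near that of Aldh1a1 alone.

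**Figure D1:**
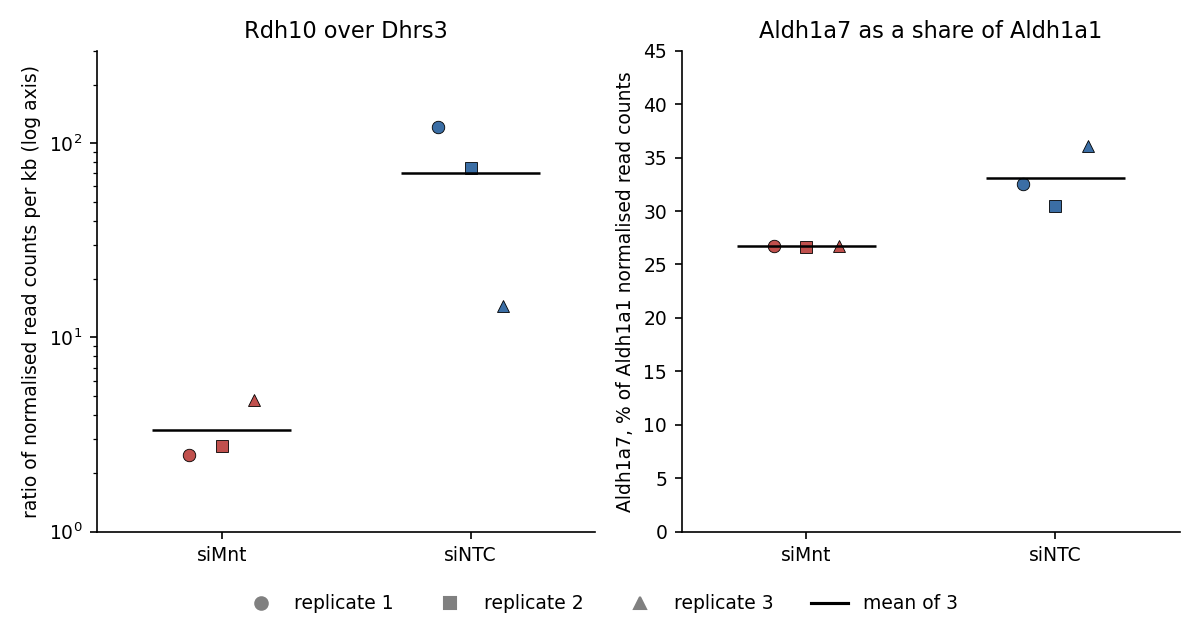
Left, the ratio of Rdh10 to Dhrs3 normalised read counts per kilobase (log axis); right, Aldh1a7 as a percentage of Aldh1a1 normalised read counts; points are libraries with 1 shape per replicate number and bars are means of 3. The Rdh10 to Dhrs3 ratio lies between 2.47 and 4.76 in siMnt and between 14.5 and 121 in siNTC, and the Aldh1a7 share lies at 26.6% to 26.7% in siMnt and 30.5% to 36.1% in siNTC.

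Rbp4, the carrier, had the highest level per kilobase of the 9 genes in siMnt cells. It held 14455, 16160 and 16327 normalised read counts in the siMnt libraries, against 3405, 4702 and 9799 in the siNTC libraries. The siMnt libraries lay close together and above every control, with siNTC replicate 3 the highest control. The log2 fold change was 1.53 ± 0.34 (SE). The pairs of libraries with numbers 1, 2 and 3 gave 2.09, 1.78 and 0.74. Without siNTC replicate 3 it was 1.97.

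**Figure D2:**
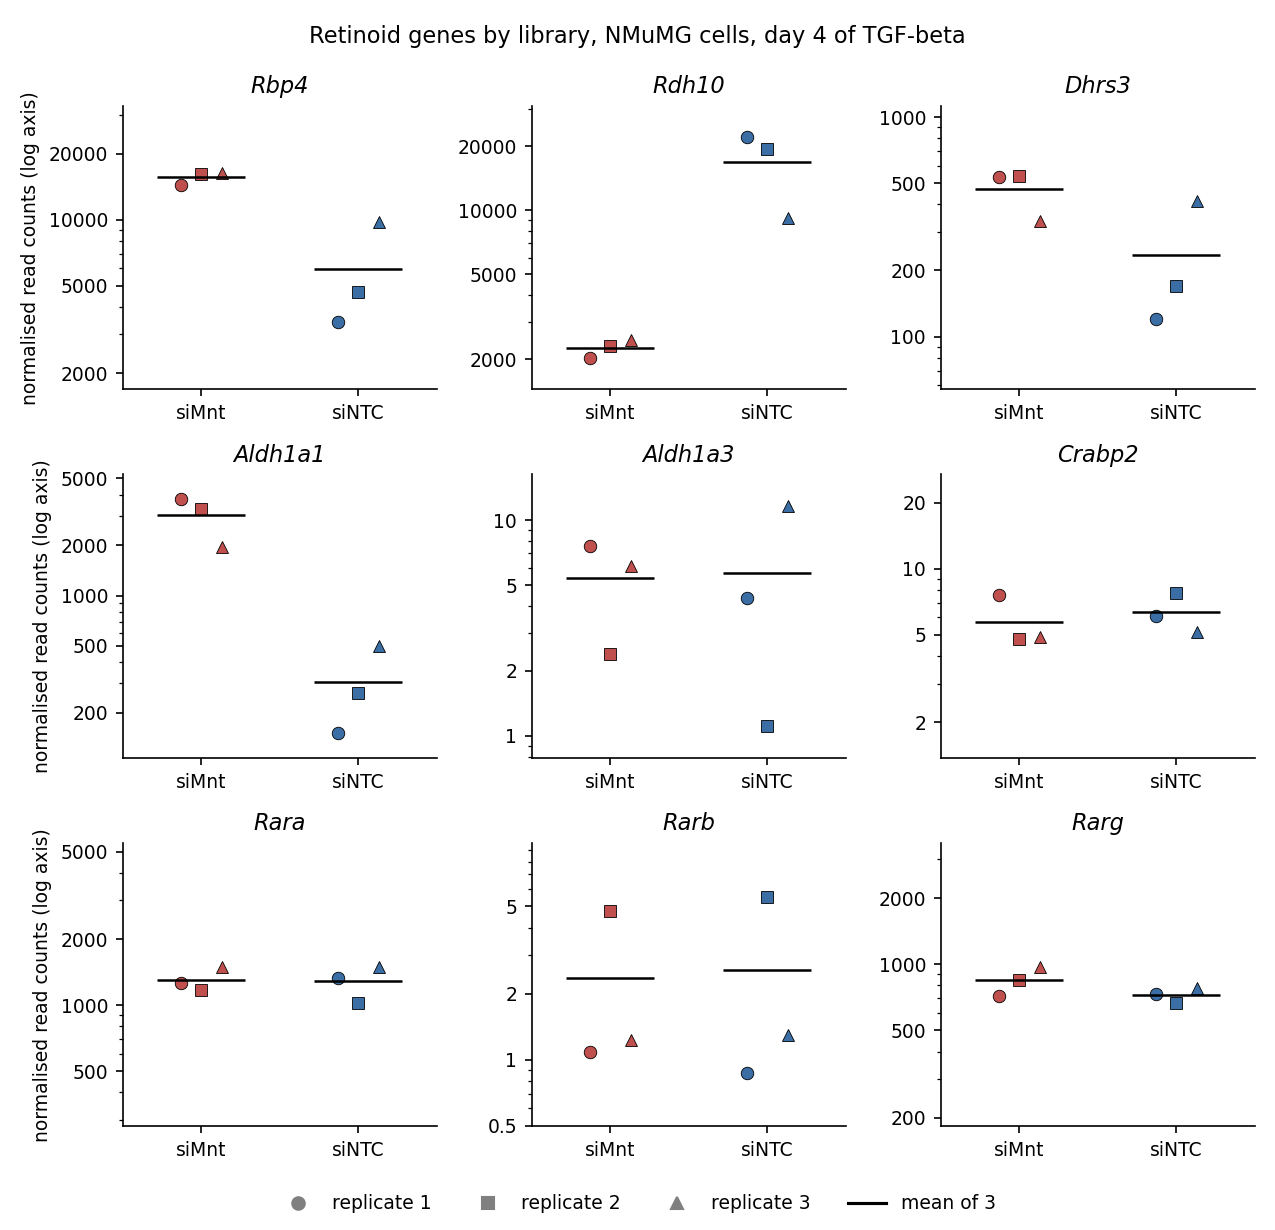
Normalised read counts of each of the 9 genes (log axis, with its own range per gene) in the 3 siMnt and 3 siNTC libraries; shapes give the replicate number and bars the mean of 3. Rbp4, Rdh10 and Aldh1a1 show groups that do not overlap, siNTC replicate 3 is the control nearest to siMnt for these and for Dhrs3, and Aldh1a3, Crabp2 and Rarb stay at 11.6 or less.

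Among the receptors, Rara held 1256, 1169 and 1496 normalised read counts in siMnt, against 1333, 1027 and 1489 in siNTC. Rarg held 715, 851 and 974 in siMnt, against 733, 668 and 781 in siNTC. Both overlapped between groups, with log2 fold changes of 0.04 ± 0.17 for Rara and 0.21 ± 0.15 for Rarg (SE), or 0.15 and 0.26 without siNTC replicate 3. The difference of Rara changed sign with the library left out, between -0.12 and 0.15, and that of Rarg stayed between 0.10 and 0.33. Per kilobase Rara exceeded Rarg in all 6 libraries, by a factor of 1.36 ± 0.168 in siMnt and 1.53 ± 0.168 in siNTC (SD, n = 3 each).

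Rarb, which retinoic acid itself induces in many cells, was nearly silent. It had 1, 4 and 1 recovered reads in siMnt replicates 1, 2 and 3, against 1, 5 and 2 in siNTC replicates 1, 2 and 3. Summed over a group this was 6 of 70325730 reads in siMnt (exact 95% Poisson interval 2.20 to 13.1) and 8 of 99379798 in siNTC (3.45 to 15.8). Crabp2 had 7, 4 and 4 reads in siMnt and 7, 7 and 8 in siNTC, which sums to 15 (8.40 to 24.7) in siMnt and 22 (13.8 to 33.3) in siNTC. Aldh1a3, an enzyme of the same step as Aldh1a1, had 7, 2 and 5 reads in siMnt and 5, 1 and 18 in siNTC, the 18 reads being in siNTC replicate 3. The sums were 14 (7.65 to 23.5) in siMnt and 24 (15.4 to 35.7) in siNTC. At this depth no difference was detectable in any of these low genes, and the intervals cover counting error only.

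Per kilobase of longest coding transcript, the order of the tested genes differed between the groups. In siMnt cells it was Rbp4 at 13478 ± 892, Aldh1a1 at 1277 ± 402, Rdh10 at 629 ± 63.3, Rara at 386 ± 50.02, Rarg at 287 ± 44.0 and Dhrs3 at 201 ± 49.0 normalised read counts per kilobase (SD, n = 3). In siNTC cells it was Rbp4 at 5141 ± 2911, Rdh10 at 4733 ± 1909, Rara at 379 ± 69.5, Rarg at 246 ± 19.2, Aldh1a1 at 129 ± 76.4 and Dhrs3 at 100.4 ± 67.2 (SD, n = 3). No neighbours in the siMnt order overlapped over the libraries. In the siNTC order Rbp4 and Rdh10 overlapped, as did Aldh1a1 and Dhrs3. Rdh10 was above Rbp4 in siNTC replicate 1 (6185 and 2932 per kilobase) and replicate 2 (5443 and 4050), and below it in replicate 3 (2570.5 and 8439.7). Aldh1a1 was above Rdh10 in every siMnt library and below it in every siNTC library.

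Over all tested genes 3.93% passed an adjusted p under 0.05 (limma, Benjamini-Hochberg over 12568 genes), 2.56% higher and 1.37% lower in siMnt. Of the 9 retinoid genes 6 averaged 10 or more over the libraries and entered the test. Of these, Aldh1a1 and Rbp4 were past that threshold as higher and Rdh10 as lower, and in 3 genes the groups did not overlap, against 31.5% of all tested genes. Nothing is read from these counts, since the genes were chosen with the contrast known. Rbp4 lay near the threshold and was not past it in edgeR on recovered reads. Leaving out 1 library kept Aldh1a1 and Rdh10 past the threshold in 3 of 6 fits, those without siNTC replicate 2, siNTC replicate 3 or siMnt replicate 3, and kept Rbp4 past it in 1, that without siNTC replicate 3. In that fit, where 16% of all tested genes passed, Dhrs3 passed as well. Without siMnt replicate 1, siMnt replicate 2 or siNTC replicate 1, 0 of all 12568 tested genes passed. Of all tested genes 125 passed without siMnt replicate 3 and 217 without siNTC replicate 2. With the replicate number as a block 15.9% of all tested genes passed, Aldh1a1, Rbp4 and Rdh10 among them and Dhrs3, Rara and Rarg not.

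**Figure D3:**
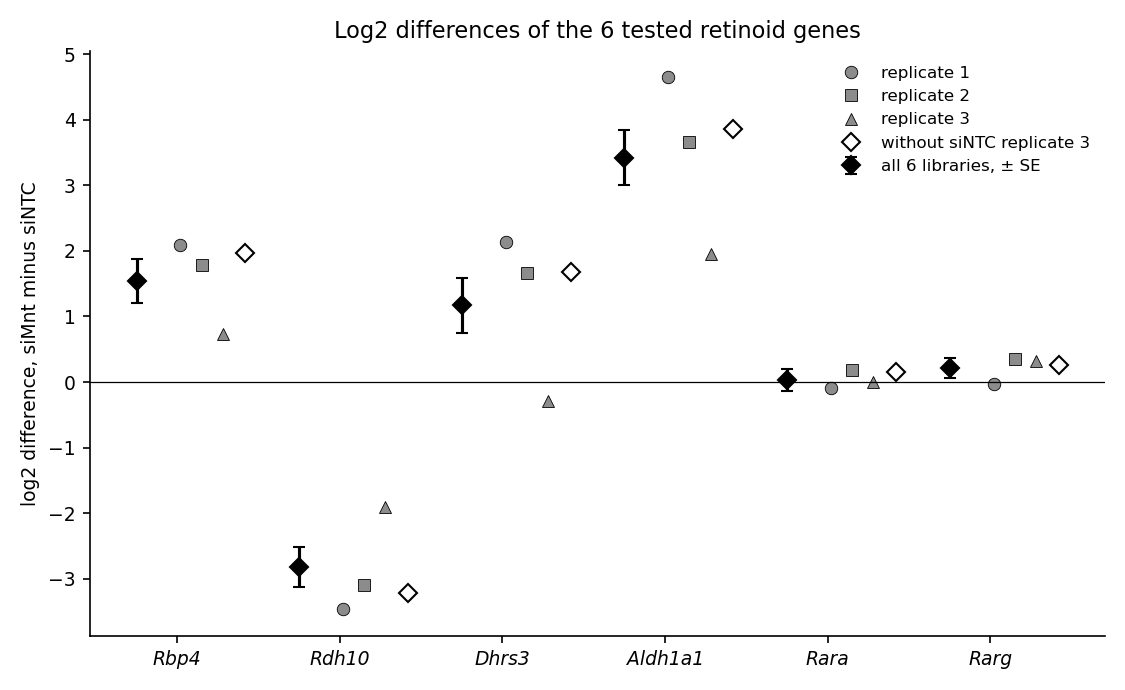
Log2 differences of log2(value + 1), siMnt minus siNTC, for the 6 tested genes: filled diamonds are all 6 libraries with their SE, grey shapes the difference within each replicate number, open diamonds the value without siNTC replicate 3. The difference within replicate 3 is the closest to 0 for Rbp4, Rdh10 and Aldh1a1 (0.74, -1.90 and 1.96), and for Dhrs3 it is -0.29.

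The other genes of retinoid handling were taken from textbook lists of 53 genes, 38 of which were analysed and 31 tested. Of the 31, 3 rose (Fabp5, Aldh1a7 and Rdh12), 0 fell and 28 did not pass (limma), where 2.56% of all tested genes rose and 1.37% fell. Aldh1a7 is counted among the 3 although the split of reads between it and Aldh1a1 is uncertain. Its part in retinoid handling was not tested. For rising genes 6 had an unadjusted p under 0.05, and edgeR called 3 and DESeq2 5. Of all 12568 tested genes 1593 were higher at that unadjusted p, and edgeR called 288 higher and DESeq2 843. For falling genes 0 of the 31 also had an unadjusted p under 0.05, and edgeR and DESeq2 called 0 each. Of all tested genes 1345 were lower at that unadjusted p, and edgeR called 157 lower and DESeq2 614. The median log2 fold change of the 31 was 0.21, against -0.01 over all tested genes. With the replicate number as a block 7 rose, against 9.33% of all tested genes, and without siNTC replicate 3, 5 rose, against 9.51%.

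Fabp5, a fatty acid binding protein that also carries retinoic acid, to the receptor PPARD, rose in siMnt cells. It held 9869, 9215 and 9070.4 normalised read counts in the siMnt libraries, against 3619, 4082 and 4833 in the siNTC libraries (log2 fold change 1.18 ± 0.13 (SE), limma adjusted p = 0.0155). Its control replicate 3 lay 25.7% of the way from the mean of the other controls to the siMnt mean on the log2 scale, against 34.6% for Aldh1a1, and without that library the log2 fold change was 1.29. Crabp2, the binding protein that serves the RAR receptors, was near 0 in the same cells as described above. Cyp26b1, which breaks retinoic acid down, was at 83.0 ± 25.4 in siMnt and 70.8 ± 27.1 in siNTC (SD, n = 3 each) and did not pass (adjusted p = 0.729, limma).

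Among the oxidoreductases, 2 of 13 tested genes rose, 0 fell and 11 did not pass, where 2.56% of all tested genes rose and 1.37% fell. The 2 were Rdh12 and Aldh1a7, whose reads can be confused with those of Aldh1a1. The median log2 fold change was 0.27. Rdh12, a retinaldehyde reductase best known from photoreceptors, rose from a low level, with 61.6, 76.4 and 34.3 normalised read counts in siMnt, against 7.86, 12.2 and 9.04 in siNTC (log2 fold change 2.40 ± 0.39 (SE), limma adjusted p = 0.0247). Its siNTC replicate 3 lay among the other controls, and without it the log2 fold change was 2.36. Rdh12 averaged 9.70 in siNTC and 57.4 in siMnt, so it reached the mean of 10 needed for testing only through siMnt. The alcohol dehydrogenases Adh7 and Adh5 were the most abundant of the list. Adh7, a retinol-oxidising form, was at 8327 ± 1854 in siMnt and 6140 ± 1121 in siNTC (adjusted p = 0.219, limma; 0.0300 with the replicate number as a block). Adh5 was at 5710.2 ± 271 in siMnt and 5639 ± 1227 in siNTC (SD, n = 3 each; adjusted p = 0.916, limma). Aldh1a7, Fabp5 and Rdh12 did not pass by limma without siMnt replicate 1, siMnt replicate 2 or siNTC replicate 1, where 0 of all tested genes passed. These genes passed in the other 3 fits that left out 1 library.

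Of 6 tested genes of retinol transport, uptake and storage 0 passed by limma, where 3.93% of all tested genes passed. Of the 6, 2 had an unadjusted p under 0.05, and edgeR called 0 and DESeq2 1. Of all 12568 tested genes 2938 had an unadjusted p under 0.05, and edgeR called 445 and DESeq2 1457. The median log2 fold change of the 6 was 0.35. The lipoprotein receptor Scarb1, which takes up carotenoids, was at 1539 ± 73.5 in siMnt and 1779 ± 268 in siNTC, and the acyltransferase Dgat1, which can esterify retinol, at 882 ± 54.2 in siMnt and 958 ± 55.3 in siNTC (SD, n = 3 each). The 2 were the retinol uptake receptor Stra6 and the endocytic receptor Lrp2, named after their values were seen, and both passed as higher with a replicate block (adjusted p = 0.0260 and 0.0147, limma).

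Of 10 tested RXR receptors and coregulators 0 passed by limma, where 3.93% of all tested genes passed. Of the 10, 0 had an unadjusted p under 0.05, and edgeR and DESeq2 called 0 each. Their log2 fold changes ran from -0.34 to 0.28. The corepressor Ncor1 was at 7651 ± 632 in siMnt and 6533 ± 1705 in siNTC, and the acetyltransferase Ep300 at 6506 ± 264 in siMnt and 5710.2 ± 1065 in siNTC (SD, n = 3 each).

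Genes known to respond to retinoic acid in one cell type or another formed a list of 24, of which 16 were tested. Of these 1 rose, 0 fell and 15 did not pass (limma), where 2.56% of all tested genes rose and 1.37% fell. At an unadjusted p under 0.05, 3 were higher and 1 (Tgm2) lower. edgeR called 1 higher and 0 lower, and DESeq2 called 1 higher and 1 lower. Of all 12568 tested genes 1593 were higher and 1345 lower at that unadjusted p. Of these genes edgeR called 288 higher and 157 lower, and DESeq2 843 higher and 614 lower. The median log2 fold change of the tested targets was 0.19. The one that rose was the adhesion molecule Icam1, also a target of inflammatory signals, with 37.8, 41.8 and 24.5 normalised read counts in siMnt, against 7.86, 9.97 and 8.40 in siNTC (log2 fold change 1.85 ± 0.35 (SE), limma adjusted p = 0.0366). When 1 library was left out, Icam1 passed only without siNTC replicate 3, where its log2 fold change was 1.82. Without siMnt replicate 1, siMnt replicate 2 or siNTC replicate 1, 0 of all tested genes passed. Icam1 averaged 8.74 in siNTC and 34.7 in siMnt, so it reached the mean of 10 needed for testing only through siMnt. The transglutaminase Tgm2, a widely used retinoic acid target, was at 9220.0 ± 414 in siMnt and 12652 ± 1757 in siNTC, with no overlap (adjusted p = 0.104, limma; 0.0457 with the replicate number as a block; 0.0181 without siNTC replicate 3). The laminin chain Lamb1 was at 4448 ± 382 in siMnt and 3625 ± 424 in siNTC (SD, n = 3 each), with adjusted p = 0.22 by limma. Of the 16 targets 3 were higher without overlap, Lamb1 and Icam1 among them, and 1, Tgm2, lower. Of all tested genes 31.5% had no overlap. With a replicate block 2 targets passed as higher and 1 as lower, against 1173 and 825 of all 12568 tested genes. Without siNTC replicate 3, 3 targets passed as higher and 1 as lower, against 1195 and 817.

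**Figure D4:**
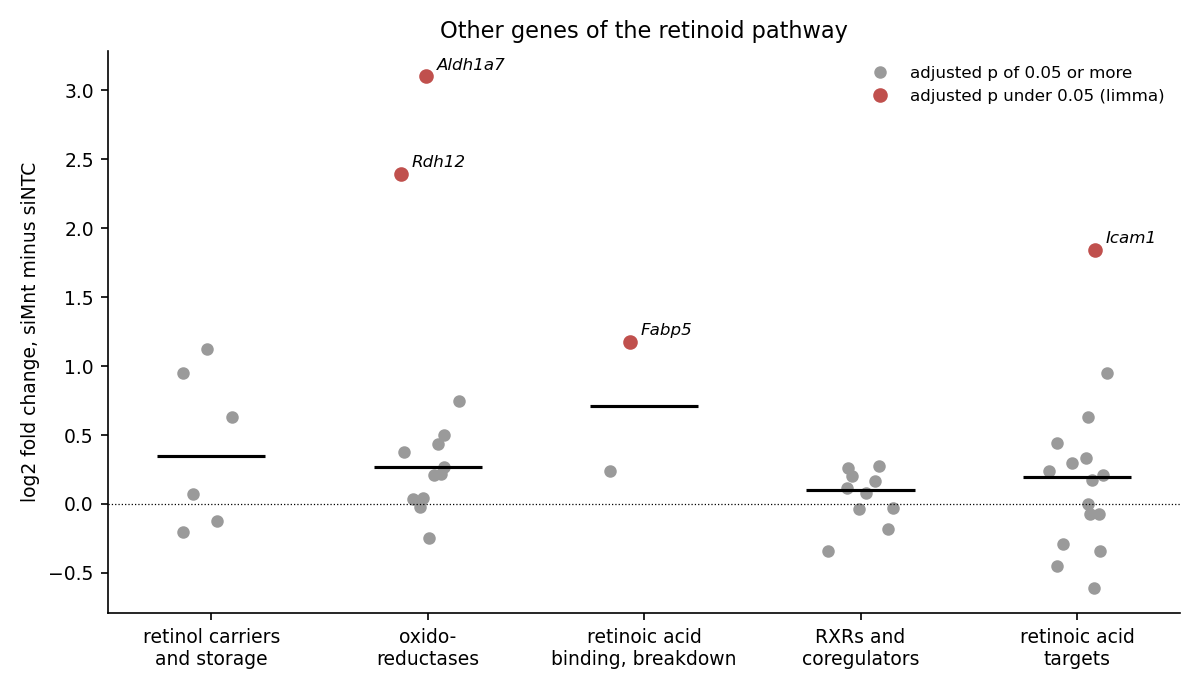
Log2 fold changes, siMnt minus siNTC, of the tested genes in 5 lists that hold none of the 9 genes; each point is a gene, some standing in more than 1 list, red points passed an adjusted p under 0.05 (limma), and bars are list medians. The medians lie between 0.10 and 0.71, and the named genes, Aldh1a7, Rdh12, Fabp5 and Icam1, are the ones that passed.

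Apart from the 9 genes themselves, the tested genes whose levels over the 6 libraries were most like those of Aldh1a1 were Ppp1r9a, Aldh1a7 and Upk1b. Their root mean square differences from Aldh1a1, in log2 values centred over the libraries, were 0.126, 0.172 and 0.177. Those most like Rdh10 were Chn1, Clca3b and Gzme, at 0.211, 0.241 and 0.265. Clca3b held 1760.3, 2369.8 and 3173 normalised read counts in siMnt, against 19536, 18160 and 12036 in siNTC, and Chn1 held 4.32, 4.77 and 7.35 in siMnt, against 67.3, 53.2 and 18.7 in siNTC. Clca3b and Gzme belong to families of similar genes, so their values are uncertain.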

How the data were processed

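Per the submitters' processing notes, the tools were TopHat2 2.1.0, DESeq2 without a version and DESeq 3.5, and the build was mm9. The sources used here do not name the counter, annotation, filters or use of strand. For 14526 genes the authors deposited a single table of a normalised signal that is never negative. Judged from the values, reads were divided by a library's size factor: 99.75% of the values above 0 lay within 0.05 of a whole read, which gave the recovered reads. Samples were grouped by title.

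The log2(value + 1) of the 12568 genes with a mean of at least 10 was tested with limma 3.58.1 in R 4.3.3 (empirical Bayes with a trend, no block, Benjamini-Hochberg adjusted p under 0.05). The 9 genes, the lists and the tests were chosen with earlier results of these data known. Named genes are the 9, Mnt, Aldh1a7, of each list up to 4 passing genes and the 2 with the highest mean, and the 3 patterns nearest to Aldh1a1 and to Rdh10. Markers are named outside this rule. Alternatives changed the pseudocount, the filter, the scaling (TMM) or the variance model, or used edgeR 4.0.16 and DESeq2 1.42.0 on recovered reads, a replicate block, or 5 of the 6 libraries; a correction for GC content and length (GENCODE M21) and the sum of Aldh1a1 and Aldh1a7 were added after seeing the data. Scripts were tested on simulated data.

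Same-numbered libraries deviated together, with correlations across genes of 0.28, 0.50 and 0.35, and other pairs at 0.03 or less. Deviations were taken from the group mean, so positive same-number values by themselves push the other pairs down. The low values of other pairs are therefore no separate sign of pairing. The pairing comes from the same-number correlations and the titles, since no label states what a number shares. Lengths are those of the longest coding transcript in GENCODE M21. No 2 replicates were copies (mean chi-square per gene 14.5 or more). 3 libraries against 3 cannot give an exact permutation p below 0.1.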

Additional observations from a re-analysis of the deposited data

How the results depend on the processing

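Of the 6 tested retinoid genes only Rara changed the sign of its log2 fold change under the alternatives run. The ranges were 2.996 to 3.86 for Aldh1a1, -3.21 to -2.58 for Rdh10, 1.203 to 1.97 for Rbp4, 0.79 to 1.68 for Dhrs3, -0.12 to 0.15 for Rara and 0.10 to 0.33 for Rarg. The 494 genes that passed by limma became 322 with a mean of at least 50, 306 without a variance trend, 1457 in DESeq2, 1998 with the replicate number as a block and 1093 after the GC and length correction. With that correction 49.2% of the passing genes were higher, against 65.2%. Leaving out 1 library gave 0 to 2012 genes; it gave 0 without siMnt replicate 1, siMnt replicate 2 or siNTC replicate 1, with 1816, 1920 and 2193 genes at an unadjusted p under 0.05.

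Of the 9 retinoid genes, 2 passed as higher in the fit reported and 1 (Aldh1a1, without Rbp4) with a mean of at least 50, without a variance trend and in edgeR; leaving out 1 library gave 0 to 3 higher and 0 to 1 lower. Of the other pathway genes 3 rose, against 5 in DESeq2, 7 with the replicate number as a block and 0 to 5 when 1 library was left out. Of the retinoic acid targets 1 rose, against 0 with a mean of at least 50, where Icam1 is no longer tested, 2 with the block and 0 to 3 when 1 library was left out. Of these targets 0 fell, against 1 in DESeq2, 1 with the block and 0 to 1 when 1 library was left out. The causes were not tested. Read counts limit what can be said of Rarb, Crabp2 and Aldh1a3.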
